A study of Rattus norvegicus with 63 samples.

Results

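The 10 genes described here are A2m, Orm1, Crp, Hp, Fga, Fgb, Fgg, Cp, Lcn2 and Hamp, which encode acute phase proteins of the liver and the iron hormone hepcidin. They were selected by symbol from the array annotation, all 10 were measured, and each was represented by the probe set with its highest mean over the 63 arrays, out of 10411 genes with a single symbol. Liver RNA came from male Wistar Hanover rats, 8 to 10 weeks old when dosing began, that received a compound or its vehicle by gavage each day. There was 1 array per animal and 3 animals per group, and these 3 were picked from 5 dosed animals on the basis of their histopathology, so that a group is not a random draw. The 15 compounds were acetamide (AA, 3000 mg/kg/d, 14 days), cefuroxime (CFX, 250 mg/kg/d, 14 days), C.I. Direct Black (CIDB, 146 mg/kg/d, 7 days), cyproterone acetate (CPA, 100 mg/kg/d, 14 days), diethylstilbestrol (DES, 10 mg/kg/d, 3 days), dehydroepiandrosterone (DHEA, 600 mg/kg/d, 14 days), dimethylnitrosamine (DMN, 4 mg/kg/d, 7 days), ethionine (ETH, 200 mg/kg/d, 14 days), methylcarbamate (Mcarb, 400 mg/kg/d, 14 days), methapyrilene HCl (MPy, 60 mg/kg/d, 7 days), nifedipine (Nif, 3 mg/kg/d, 14 days), phenobarbital (PB, 14 days, with no dose in the labels), piperonylbutoxide (PBO, 1200 mg/kg/d, 3 days), thioacetamide (TAA, 19.2 mg/kg/d, 7 days) and Wy-14643 (Wy, 60 mg/kg/d, 3 days). Each was set against the vehicle arrays that the labels assign to it, called its control set. Control set 1 (methylcellulose) served AA, DHEA, Mcarb, MPy, TAA and Wy, set 2 (methylcellulose) served CFX and Nif, set 3 (corn oil, 7 days) served CIDB and DMN, set 4 (corn oil, 14 days) served CPA, set 5 (methylcellulose) served DES, ETH and PBO, and set 6 (methylcellulose) served PB. The 4 methylcellulose sets are labelled 14 days, although DES, PBO and Wy were given for 3 days and MPy and TAA for 7 days, so that by the labels alone the effect of the agent and any effect of time cannot be told apart for these 5 compounds. The study's methods describe the vehicle groups as matched in time, which the labels of these sets do not show, and the sets were used as labelled. The study's table of compounds lists carboxymethyl cellulose as the vehicle of CFX, Nif, PB, PBO, TAA and Wy, where the labels name methylcellulose. Its methods text names carboxymethyl cellulose for every compound not given in corn oil. Compounds of 1 control set share their reference arrays.

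In the acute phase response, cytokines such as IL-6, acting through the receptor subunit gp130 and the transcription factor STAT3, and IL-1, acting through NF-kappaB and C/EBP factors, change the set of proteins that hepatocytes secrete. In the rat, alpha-2-macroglobulin (A2m) is the classic strongly inducible member, whereas fibrinogen, haptoglobin and ceruloplasmin are already made at a high level in healthy liver. Hepcidin (Hamp) is controlled by the same STAT3 route and, separately, by bone morphogenetic proteins that signal through SMAD factors, and it closes the iron exporter ferroportin.

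All values are RMA levels on the log2 scale, and a difference of 1 is a 2-fold difference. The array levels of the whole table ran between 3.96 and 15.11, and each array correlated with its own group at a mean of 0.9886 to 0.9956 across probe sets. Among the 18 control arrays, Hp lay between 14.48 and 14.72, Crp between 14.04 and 14.35 and Fgg between 13.94 and 14.14, which is close to the top of that scale, and whether the scale narrows differences there was not tested. A2m (7.00 to 8.76) and Lcn2 (6.82 to 7.78) lay far below it. The hepatocyte markers were high throughout, with a summed level over 7 measured genes between 16.34 and 16.71 on every array (log2 of the summed unlogged levels). Control sets of 1 vehicle were also compared with each other, in 7 pairs and 70 tests of a member, and limma called 0 of them, with 6 at an unadjusted p under 0.05. Over all probe sets those pairs gave calls for 0.914% (set 1 against set 2), 2.14% (set 1 against set 5), 7.77% (set 1 against set 6), 2.72% (set 2 against set 5), 1.95% (set 2 against set 6), 10.2% (set 5 against set 6) and 0.466% (set 3 against set 4). The member with the lowest unadjusted p among them was Hp, at 14.50 ± 0.03 in set 3 and 14.67 in set 4 (difference -0.16, adjusted p = 0.0878).

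The stretches before the transcription start of 4 members are shown because Fga, Fgb and Fgg shifted in the same compounds and because Hamp has 2 known routes of control. They are the 250 bases before the start from RefSeq (build GRCr8), read 5′ to 3′ on the gene's own strand. Hamp lies at chr1:95300272-95300521 on the minus strand, Fgg at chr2:170652833-170653082 on the plus strand, Fgb at chr2:170700876-170701125 on the minus strand and Fga at chr2:170671919-170672168 on the plus strand. Capitals in Hamp mark GGCGCC, known from the human gene as an element that responds to bone morphogenetic proteins, and then TTCNNNGAA, the general STAT motif. Capitals in Fgg mark CTGGGAA, known as an IL-6 response element of rat acute phase genes. Capitals in Fgb mark TTCNNNGAA and then CTGGGAA, and those in Fga mark TTCNNNGAA.
Hamp: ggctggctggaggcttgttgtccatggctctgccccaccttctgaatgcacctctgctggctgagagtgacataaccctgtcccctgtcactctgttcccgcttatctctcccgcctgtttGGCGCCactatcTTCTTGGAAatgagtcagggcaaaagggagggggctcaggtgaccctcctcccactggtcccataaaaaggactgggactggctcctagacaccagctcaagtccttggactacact
Fgg: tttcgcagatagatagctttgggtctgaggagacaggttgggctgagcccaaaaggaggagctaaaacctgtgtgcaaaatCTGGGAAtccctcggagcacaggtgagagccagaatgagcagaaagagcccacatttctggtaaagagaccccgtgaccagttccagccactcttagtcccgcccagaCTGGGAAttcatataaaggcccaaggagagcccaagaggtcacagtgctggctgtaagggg
Fgb: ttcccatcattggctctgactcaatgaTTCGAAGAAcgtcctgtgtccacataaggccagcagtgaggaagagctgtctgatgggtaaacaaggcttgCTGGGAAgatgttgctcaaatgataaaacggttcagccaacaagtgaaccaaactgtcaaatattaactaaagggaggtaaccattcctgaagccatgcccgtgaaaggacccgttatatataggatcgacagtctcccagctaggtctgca
Fga: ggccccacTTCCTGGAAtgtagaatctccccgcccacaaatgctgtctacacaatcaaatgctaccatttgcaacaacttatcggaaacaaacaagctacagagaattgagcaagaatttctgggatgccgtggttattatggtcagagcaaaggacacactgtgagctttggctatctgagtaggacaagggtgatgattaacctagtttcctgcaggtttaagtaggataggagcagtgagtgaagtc
Of the 10 members, 8 matched an entry, Fga with 2 start sites of which the first is shown, and A2m and Hp did not match. Over the whole 300-base windows, which run to 50 bases past the start, and on both strands, CTGGGAA was found in 3 members (Fgb, Fgg and Lcn2) and in 11.3% of all 33469 RefSeq promoter windows. TTCNNNGAA was found in 3 members (Fga, Fgb and Hamp) and in 8.87% of all windows. TTNNGNAAT, a C/EBP motif, was found in 3 members (Orm1, Crp and Fgb) and in 12.3% of all windows, and GGCGCC in 1 member (Hamp) and in 11% of all windows. None of these matches overlapped another in the windows shown, and a match only says that the letters are there.

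Of the 150 pairs of a member and a compound, 33 passed the test (limma, Benjamini-Hochberg adjusted p under 0.05 over all 15866 probe sets), 26 lower and 7 higher than the control set. They fell in 8 of the 15 compounds. Here and below, lowered and raised mean called lower or higher than the control set. By the labels, agent and time cannot be told apart for Wy, DES, PBO, MPy and TAA. Wy lowered 6 of the 10 members and raised 0, where 6.45% of all probe sets were called lower and 6.50% higher. DHEA lowered 5 and raised 0, against a background of 8.37% lower and 9.30% higher. DES lowered 4 and raised 1 (8.72% lower and 6.77% higher over all probe sets), PBO lowered 4 and raised 0 (7.46% and 7.03%), and CPA lowered 4 and raised 0 (4.73% and 3.11%). ETH raised 3 and lowered 2, where 11.7% of all probe sets were called higher and 11.8% lower. CIDB raised 3 and lowered 0 (8.14% higher and 5.75% lower), and Nif lowered 1 and raised 0 (4.68% lower and 3.78% higher). The median difference over the 10 members was -0.28 in DES, -0.23 in PBO, -0.21 in Wy and -0.17 in DHEA, where the median over all probe sets was -0.007, -0.017, -0.003 and 0.009 in the same order. It was 0.12 in CIDB and 0.10 in ETH, where the median over all probe sets was -0.020 and -0.034.

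**Figure D1:**
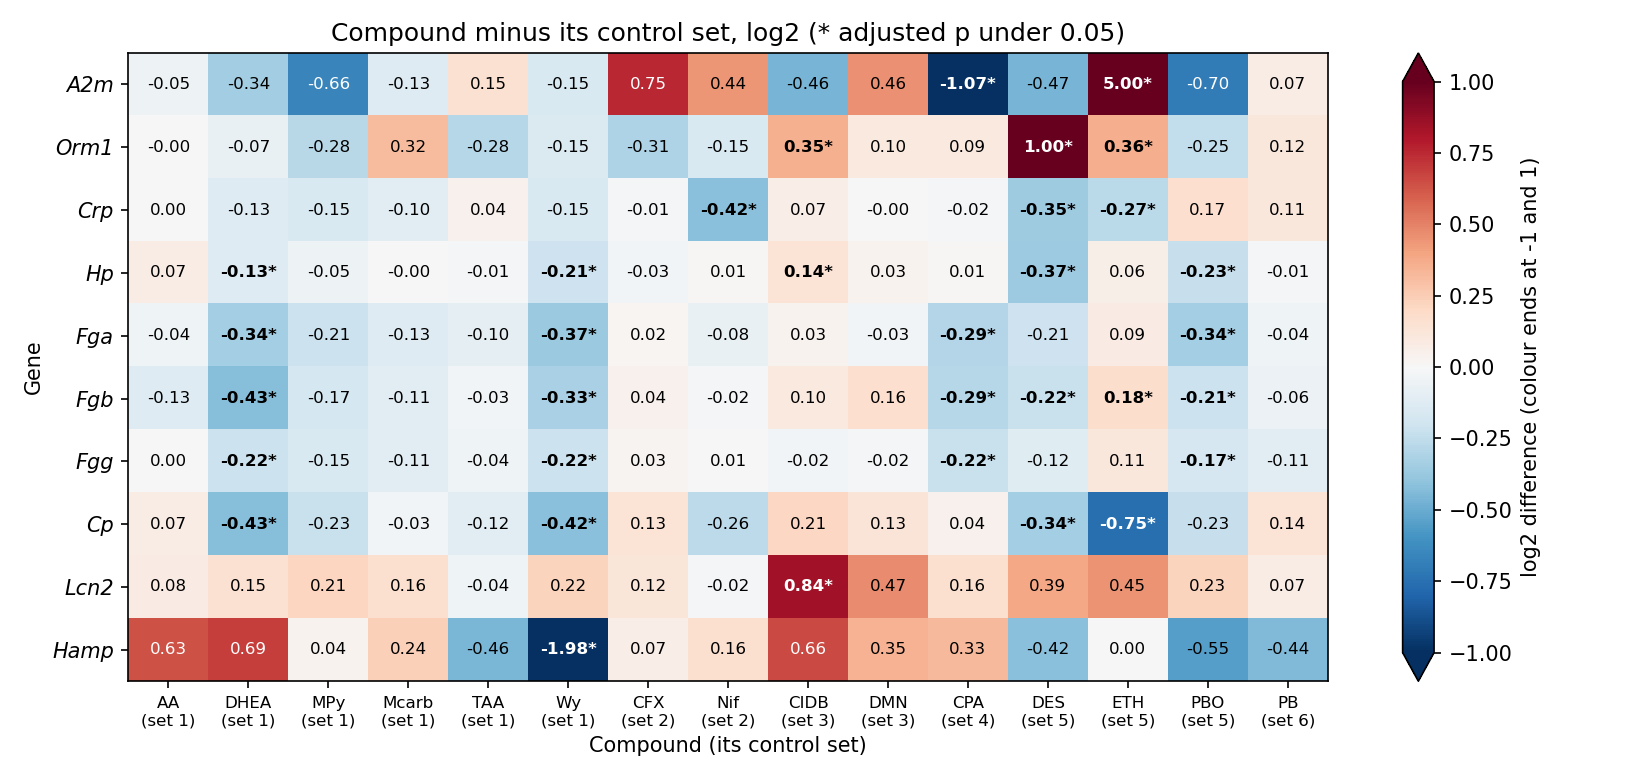
Difference of each compound from its control set (log2, 3 arrays against 3) for the 10 members, in rows, and the 15 compounds, in columns ordered by control set, with an asterisk and bold type for an adjusted p under 0.05 and colours that end at -1 and 1. A2m in ETH, at 5.00, stands outside the colour range, and the fibrinogen rows are marked as lower in CPA, DHEA, PBO and Wy.

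Most of these differences were small. A difference beyond the 2.5-fold criterion of the study was reached by A2m in ETH and by Hamp in Wy, and no other called pair reached it. Of the 33 called pairs, 10 kept their call in all alternative fits tried and without any single array. They were A2m and Cp in ETH, Orm1, Crp and Hp in DES, Lcn2 in CIDB, Crp in Nif, Cp in DHEA, and Fga and Cp in Wy. For Fgb, the fit on the median over probe sets reads a dim probe set, as given below. For Cp, a dimmer probe set was not called in ETH, DHEA or Wy, as also given below.

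A2m encodes alpha-2-macroglobulin, a broad inhibitor of proteases. Its levels were 12.63, 13.25 and 12.56 in ETH livers, against 8.26, 8.08 and 7.10 in control set 5. All 3 ETH animals lay far above every other array of the series, since the next highest value was 9.28, in a CFX liver. The difference was 5.00 ± 0.31 (SE), a 32.0-fold higher level (adjusted p = 2.37e-17). The macrophage and Kupffer cell markers moved in the same livers: 6 of 8 measured genes were higher and 1 was lower, and their summed level was 13.78 to 13.87 in ETH against 12.45 to 12.74 in set 5. The biliary marker Krt19 was higher by 1.90 and the summed biliary level was 9.76 to 10.49 in ETH against 9.27 to 9.34 in set 5, while the hepatocyte sum was 16.66 to 16.70 against 16.52 to 16.58. Over all probe sets 11.7% were called higher in ETH and 11.8% lower. Of the other marker lists, 2 of 10 stellate and matrix genes, 1 of 4 endothelial genes and 1 of 4 neutrophil genes were higher in ETH. Of the lymphocyte genes 1 of 8 was higher, and 1 of 3 erythroid genes was lower. The part of these cells in the A2m result was not tested, and in bulk liver RNA a change in the number of cells of a type and a change in RNA per cell cannot be told apart.

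In the CPA livers A2m levels were 6.93, 7.41 and 7.20, against 7.79, 8.19 and 8.76 in control set 4. The groups did not overlap, and the level was 2.10-fold lower in CPA (difference -1.07 ± 0.31, adjusted p = 0.0257). The call was lost without CPA animal 1 (adjusted p = 0.139), without set 4 animal 2 (adjusted p = 0.0534) and without set 4 animal 3 (difference -0.81, adjusted p = 0.161). A2m varied widely among controls, with a within-set SD of 0.40, so that only large shifts could pass at 3 animals per group. The 13 remaining compounds were not called, with differences between -0.70 in PBO and 0.75 in CFX. The CFX value rested on a spread of 9.28, 7.72 and 8.12 in CFX, against 7.70, 7.69 and 7.48 in set 2. With all controls of a vehicle pooled, MPy (-1.03, adjusted p = 2.91e-03) and DHEA (-0.71, adjusted p = 0.0319) passed as lower, and MPy also passed when only its 6 compared arrays were fitted (adjusted p = 0.0341). With array weights DMN passed as higher (0.70, adjusted p = 0.0401).

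Orm1 encodes orosomucoid, or alpha-1-acid glycoprotein, a plasma protein that binds drugs and steroids. Its levels were 14.46, 14.53 and 14.55 in DES livers, against 13.57, 13.40 and 13.55 in control set 5. These 3 animals held the highest Orm1 levels of all 63, and the level was 2.00-fold higher (difference 1.00 ± 0.12, adjusted p = 6.89e-09). ETH livers, set against the same control arrays, were higher by 0.36 ± 0.12 (adjusted p = 0.0191), at 13.87 ± 0.07 in ETH and 13.51 ± 0.09 in set 5 (SD, n = 3 each). The ETH call was lost without ETH animal 1 or 2 (adjusted p = 0.0601 and 0.0664) or set 5 animal 8 (adjusted p = 0.0969), and with array weights (adjusted p = 0.0547). In CIDB the difference was 0.35 ± 0.12 (adjusted p = 0.0344), with 13.52 ± 0.04 in CIDB and 13.16 ± 0.14 in set 3. Leaving out any 1 of the 3 CIDB animals or set 3 animal 4 or 5 lost that call (adjusted p of 0.0666 to 0.153). No compound lowered Orm1 past the test, and the lowest difference was -0.31 in CFX. With all controls of a vehicle pooled, MPy (-0.36, adjusted p = 5.46e-03) and TAA (-0.37, adjusted p = 4.56e-03) passed as lower, as did MPy with array weights (-0.34, adjusted p = 0.014).

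Lcn2 encodes lipocalin 2, a carrier of bacterial siderophores. Its levels were 7.78, 8.06 and 7.69 in CIDB livers, against 6.97, 6.96 and 7.08 in control set 3. The groups were well apart, and the level was 1.79-fold higher in CIDB (difference 0.84 ± 0.18, adjusted p = 8.62e-04). The other 14 compounds were not called, with differences between -0.04 in TAA and 0.47 in DMN. DMN passed when only its 6 compared arrays were fitted (adjusted p = 0.0286) and with array weights (0.51, adjusted p = 8.43e-03), and ETH passed with all controls of a vehicle pooled (0.36, adjusted p = 0.0487). Single arrays of ETH (7.75), PB (7.77) and control set 6 (7.78) lay within the CIDB range. Of the 4 measured neutrophil markers, a cell type that stores lipocalin 2, none was called in CIDB, and their summed level was 7.58 to 7.67 in CIDB against 7.55 to 7.94 in set 3. Over all probe sets 8.14% were called higher in CIDB and 5.75% lower. Of 8 macrophage markers, Cd68, Gpnmb and Lgals3 were higher and Cd14 was lower in CIDB. Of 5 biliary and progenitor markers 2 were higher in CIDB, with a summed level of 9.54 to 9.92 in CIDB against 8.98 to 9.18 in set 3, and of 10 stellate and matrix markers 3 were higher and 1 was lower. The erythroid markers moved most, with a difference of -4.91 for Hbb and a summed erythroid level of 9.35 to 9.61 in CIDB against 13.38 to 13.98 in set 3. The part of these cells in the CIDB values was not tested.

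Hamp encodes hepcidin. Its levels were 8.88, 11.68 and 12.16 in Wy livers, against 12.92, 12.48 and 13.27 in control set 1. All 3 Wy animals lay below all 3 controls, but animal 1 lay far below the other Wy animals. The level was 3.94-fold lower (difference -1.98 ± 0.44, adjusted p = 1.10e-03). Without Wy animal 1 the difference was -0.97 (adjusted p = 0.0775), so its size and its call rested on that animal. It also did not pass when only the 6 compared arrays were fitted (adjusted p = 0.131). The 14 other compounds were not called, with differences between -0.55 in PBO and 0.69 in DHEA and with a within-set SD of 0.34 among controls. DHEA passed when only its 6 compared arrays were fitted (adjusted p = 0.0351). Outside Wy, the lowest of all 63 arrays was TAA animal 1, at 11.58.

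**Figure D2:**
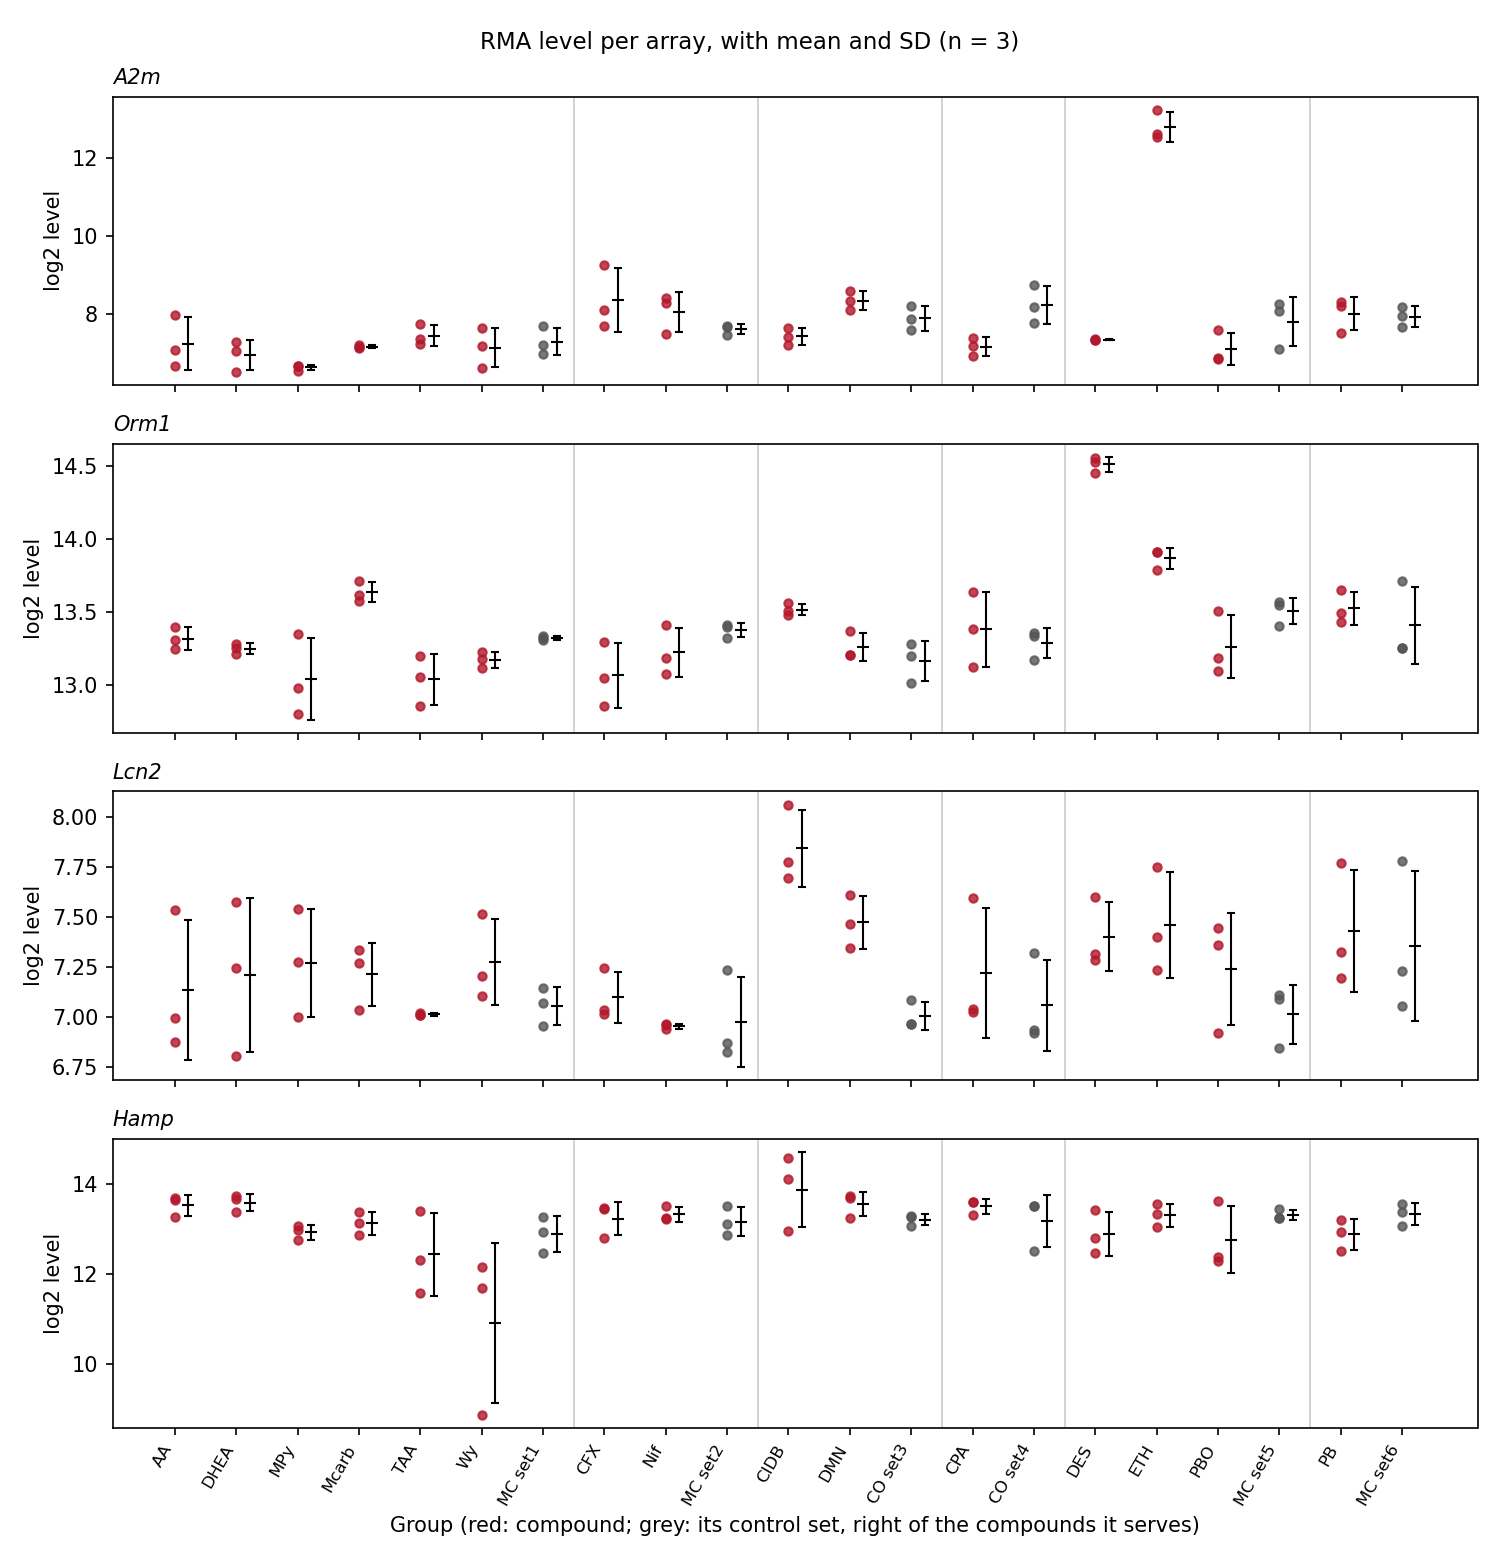
RMA level (log2) of A2m, Orm1, Lcn2 and Hamp on each of the 63 arrays, as points (red for compounds, grey for control sets), with the mean and SD of each group of 3 beside them and each control set to the right of the compounds it served. ETH stands alone for A2m and DES for Orm1, the CIDB range for Lcn2 (7.69 to 8.06) holds single arrays of ETH, PB and set 6 as well, and for Hamp 1 of the 3 Wy arrays is far below the other 2.

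Crp encodes C-reactive protein, a pentraxin that in the rat circulates at a high level in health. Its levels were 13.75, 13.67 and 13.84 in Nif livers, against 14.17, 14.21 and 14.14 in control set 2. Every Nif value was below every control, and the level was 1.33-fold lower (difference -0.42 ± 0.07, adjusted p = 9.52e-06). It was the only member called in Nif, although Cp passed there with array weights (-0.25, adjusted p = 0.0368). Over all probe sets 4.68% were called lower in Nif and 3.78% higher. In Nif 2 of 7 hepatocyte markers were lower, and 2 of 10 stellate and matrix markers and 1 of 4 endothelial markers were higher. The part of these markers in the Crp value was not tested. Crp was also lower in DES, at 13.77 ± 0.10 in DES and 14.13 ± 0.08 in set 5 (difference -0.35, adjusted p = 7.00e-05). In ETH the mean was 13.86 ± 0.11, against the same 14.13 ± 0.08 in set 5 (difference -0.27, adjusted p = 1.54e-03), a call that was lost when only the 6 compared arrays were fitted (adjusted p = 0.102). No compound raised Crp past the test, and the highest difference was 0.17 in PBO. PBO passed when the table was quantile normalized again (0.21, adjusted p = 0.0173), and PB passed with all controls of a vehicle pooled (0.18, adjusted p = 0.0334). With array weights MPy (-0.18, adjusted p = 0.0174) and Wy (-0.17, adjusted p = 0.0246) passed as lower.

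Hp encodes haptoglobin, which binds free haemoglobin. Its levels were 14.23, 14.36 and 14.16 in DES livers, against 14.65, 14.60 and 14.60 in control set 5. The groups did not overlap, and the level was 1.29-fold lower in DES (difference -0.37 ± 0.05, adjusted p = 3.96e-08). In DES 2 of 7 hepatocyte markers were lower and 1 higher, where 8.72% of all probe sets were called lower and 6.77% higher. The sum of these markers was 16.50 to 16.54 in DES against 16.52 to 16.58 in set 5, and their part was not tested. Hp was also lower in PBO (difference -0.23, adjusted p = 2.85e-04), in Wy (-0.21, adjusted p = 9.28e-04) and in DHEA (-0.13, adjusted p = 0.0434). With only the 6 compared arrays fitted, none of these 3 calls held (adjusted p = 0.122 in PBO, 0.0622 in Wy and 0.238 in DHEA), and after renewed quantile normalization those in Wy (-0.083, adjusted p = 0.333) and DHEA (-0.028, adjusted p = 0.768) were lost. The DHEA and control values overlapped, and the call also missed the threshold with a trended robust prior (adjusted p = 0.0594) and was lost without DHEA animal 1 or 3 or set 1 animal 4 or 5 (adjusted p of 0.122 to 0.198). The 1 increase was in CIDB, with 14.67, 14.64 and 14.60, against 14.49, 14.48 and 14.53 in set 3. The values did not overlap, but the difference of 0.14 (adjusted p = 0.0405) was smaller than that between the control sets 3 and 4 given above, and leaving out any of the 6 arrays lost the call (adjusted p of 0.0518 to 0.14). With all controls of a vehicle pooled it was 0.053 (adjusted p = 0.385).

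Fga, Fgb and Fgg encode the 3 chains of fibrinogen, the precursor of fibrin, and lie next to each other on chromosome 2. All 3 chains were lower in CPA, DHEA, PBO and Wy, Fgb also in DES, and Fgb alone was higher in ETH. In DES, Fga (-0.22, adjusted p = 0.0249) and Fgg (-0.15, adjusted p = 0.0141) passed as lower only with all controls of a vehicle pooled, apart from Fgg after renewed quantile normalization (-0.16, adjusted p = 0.0272). Fgb levels were 13.71, 13.71 and 13.50 in DHEA livers, against 14.09, 13.98 and 14.12 in control set 1. The groups did not overlap, and Fgb was 1.34-fold lower (difference -0.43 ± 0.06, adjusted p = 7.90e-07). Set 1 held the highest Fgb mean of the 6 control sets, at 14.06 ± 0.08.

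Fga levels were 12.96, 12.93 and 12.90 in Wy livers, against 13.36, 13.31 and 13.22 in control set 1. All Wy values lay below all controls, with a difference of -0.37 ± 0.09 (adjusted p = 3.03e-03). Fgg levels were 13.86, 13.83 and 13.96 in CPA livers, against 14.14, 14.12 and 14.06 in control set 4. These groups did not overlap either, with a difference of -0.22 ± 0.06 (adjusted p = 8.79e-03). Across the 13 called decreases of a chain, the differences lay between -0.43 and -0.17. The groups overlapped in none of them, but a call on the same arrays makes such separation likely. The share of called probe sets without overlap was not determined.

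Other markers were called in the same livers. Over all probe sets, 6.45% were called lower and 6.50% higher in Wy, and 8.37% and 9.30% in DHEA. In CPA these shares were 4.73% and 3.11%, and in PBO 7.46% and 7.03%. In Wy 5 of the 7 hepatocyte markers were lower and 0 higher, and their summed level was 16.34 to 16.45 in Wy, against 16.54 to 16.57 in set 1. In DHEA 4 were lower and 1 higher, with a sum of 16.37 to 16.44, against the same 16.54 to 16.57 in set 1. The sums overlapped in CPA (16.52 to 16.61, against 16.57 to 16.64 in set 4) and in PBO (16.47 to 16.57, against 16.52 to 16.58 in set 5). Of the 8 macrophage markers, 5 were lower in DHEA, 3 in CPA, 2 in Wy and 0 in PBO. Of the 10 stellate and matrix markers, 3 were lower and 1 higher in CPA, 3 were lower in DHEA, 2 in Wy and 0 in PBO, and their sum was 10.82 to 11.03 in CPA against 11.76 to 11.94 in set 4 and 11.08 to 11.37 in DHEA against 12.03 to 12.19 in set 1. Of the 4 endothelial markers, 2 were lower in DHEA, 2 in Wy, 1 in CPA and 1 in PBO. Of the 3 erythroid markers, 2 were lower in CPA, with a sum of 12.70 to 13.04 in CPA against 13.35 to 14.11 in set 4. The marker lists share genes with the lists given further below. Alb, Ttr and Apoa1 are also negative acute phase genes, Serpina1 and Cd14 positive ones, and Hnf4a is in the signalling list. Their counts are therefore not separate observations. The part of these marker shifts in the member values was not tested.

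Several of these calls rested on single animals. In CPA, the Fga call was lost without CPA animal 1 or 2 or set 4 animal 1 or 3 (adjusted p of 0.069 to 0.231), and the Fgg call without CPA animal 1 or 2 or set 4 animal 1 (adjusted p of 0.0502 to 0.0604). In DHEA, the Fga call was lost without DHEA animal 3 (adjusted p = 0.0559) and the Fgg call without DHEA animal 2 (adjusted p = 0.0824). In PBO, all 3 chains lost their call without PBO animal 1 or set 5 animal 7, Fgb and Fgg also without PBO animal 2, and Fgg without set 5 animal 8 (adjusted p of 0.0621 to 0.239). Without PBO animal 1 the Fga difference was -0.22, against -0.34 with it. The other 6 decreases, Fgb in CPA, DES and DHEA and all 3 chains in Wy, kept their call without any array. Other fits ended some of them: with only the 6 compared arrays, Fgb in CPA (adjusted p = 0.0625) and DES (adjusted p = 0.136) and Fgg in Wy (adjusted p = 0.06) were lost, and Fgg in Wy also after renewed quantile normalization (adjusted p = 0.0532). With the median over probe sets Fgb gave 0.069 in CPA, 0.047 in DHEA and -0.023 in Wy, and none of these passed. That median is the value of a dim Fgb probe set, with a mean of 6.41 over all arrays against 13.91 for the chosen one. Fgb in DHEA and in Wy failed in that fit alone. Of the 6, Fga in Wy alone held in every fit tried. With only the compared arrays, Fga and Fgg in CPA, Fgg in DHEA and all 3 chains in PBO did not pass either (adjusted p of 0.0906 to 0.289), and after renewed quantile normalization Fga in CPA did not (adjusted p = 0.139).

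The Fgb increase in ETH was small and did not hold in several fits. Levels were 14.03, 14.31 and 14.12 in ETH livers, against 14.03, 13.99 and 13.92 in control set 5. The groups overlapped, and the difference of 0.18 ± 0.06 (adjusted p = 0.0284) was 0.10 without ETH animal 2 (adjusted p = 0.34) and was also no longer called without set 5 animal 8 or 9 (adjusted p = 0.0598 and 0.136). It was lost with only the compared arrays (adjusted p = 0.322) and with array weights (adjusted p = 0.125). With the median over probe sets, which is the dim Fgb probe set, it turned to -0.112 (adjusted p = 0.356).

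Fga had a second probe set, and it gave larger decreases in DHEA, CPA and PBO. On it, levels were 12.17, 11.77 and 11.28 in DHEA livers, against 12.80, 12.62 and 12.57 in control set 1 (difference -0.92 ± 0.15, adjusted p = 1.13e-05). In CPA they were 11.59, 11.76 and 11.83, against 12.46, 12.89 and 12.54 in set 4 (difference -0.91, adjusted p = 5.08e-05). In PBO the difference was -0.66 (adjusted p = 1.58e-03), while Wy, at -0.37, did not pass (adjusted p = 0.111). The 2 other Fgb probe sets, with means of 6.41 and 5.51 over all arrays, gave 0.05 and -0.16 in DHEA, and neither was called there, while the first of them was called lower in DES (-0.30) and PBO (-0.29).

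**Figure D3:**
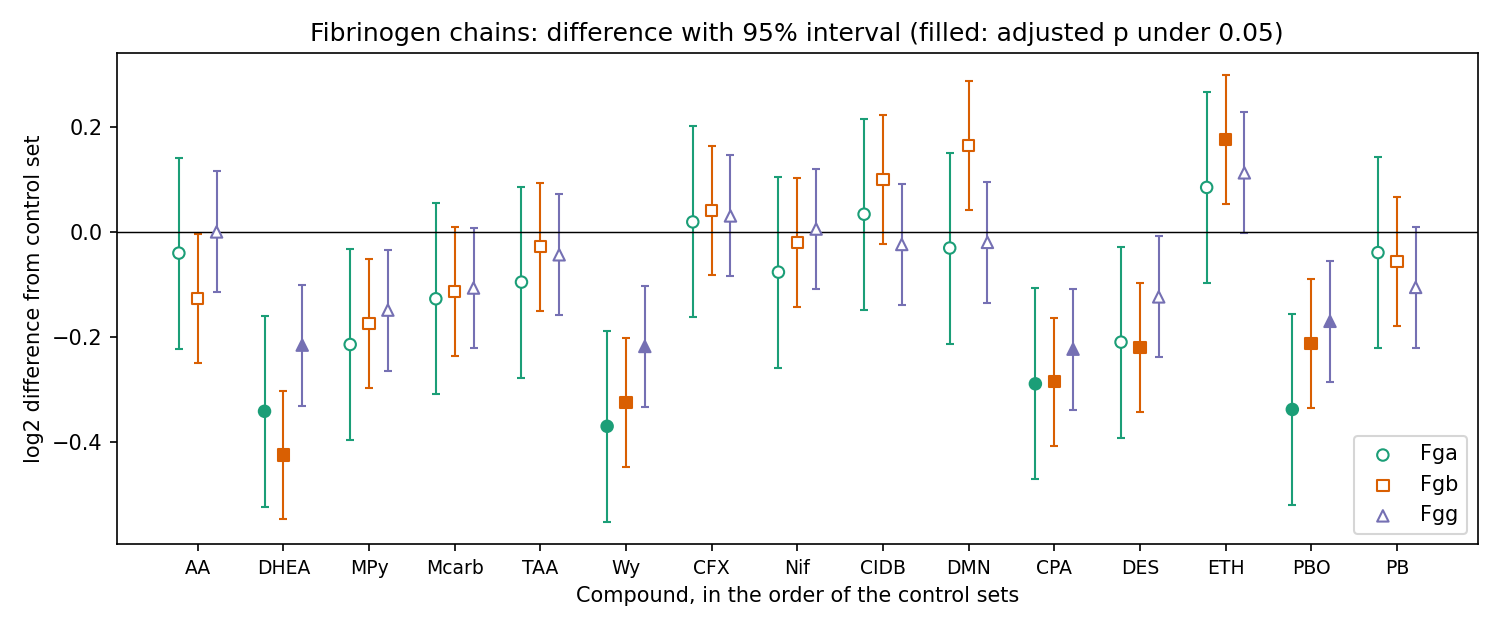
Difference of each compound from its control set (log2) for Fga, Fgb and Fgg, with 95% intervals from limma and filled symbols for an adjusted p under 0.05, compounds ordered by control set. The symbols for DHEA, Wy, PBO and CPA are filled and below 0 for all 3 chains, and the only filled symbol above 0 is Fgb in ETH, at 0.18.

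Cp encodes ceruloplasmin, a copper-carrying oxidase of iron. Its levels were 12.63, 12.61 and 12.38 in ETH livers, against 13.37, 13.33 and 13.19 in control set 5. These are the 3 lowest Cp values of the series, and the level was 1.69-fold lower (difference -0.75 ± 0.10, adjusted p = 8.63e-08), or -0.49 with the median over the Cp probe sets. Cp was also lower in DHEA (difference -0.43, adjusted p = 1.83e-03), Wy (-0.42, adjusted p = 2.64e-03) and DES (-0.34, adjusted p = 0.0166). The DES call was lost without DES animal 3 or set 5 animal 7 or 8 (adjusted p of 0.0615 to 0.0722). The chosen probe set was not called higher in any compound, although CIDB passed with array weights (0.30, adjusted p = 4.99e-03). PBO passed as lower with all controls of a vehicle pooled (-0.23, adjusted p = 0.0396) and with the median over probe sets (-0.25, adjusted p = 0.0467).

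The 3 Cp probe sets did not behave alike. A second one, with a mean of 12.71 over all arrays, was called lower in DES, DHEA, ETH and Wy as well, and also in MPy and PBO. The remaining probe set, with a mean of 8.81, was not called in any of these 6. It gave 0.39 in ETH (adjusted p = 0.103), opposite in sign to the chosen probe set, and 0.011 in Wy. Its differences were -0.28 in DES, -0.26 in MPy, -0.24 in DHEA and -0.21 in PBO. It was called in CIDB alone, where its levels were 10.42, 10.26 and 10.46, against 8.86, 8.60 and 8.64 in control set 3. The groups did not overlap, and the level was higher by 1.68 ± 0.17 (adjusted p = 1.97e-10). On the chosen Cp probe set CIDB gave 0.21 and on the second -0.02, and neither was called.

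**Figure D4:**
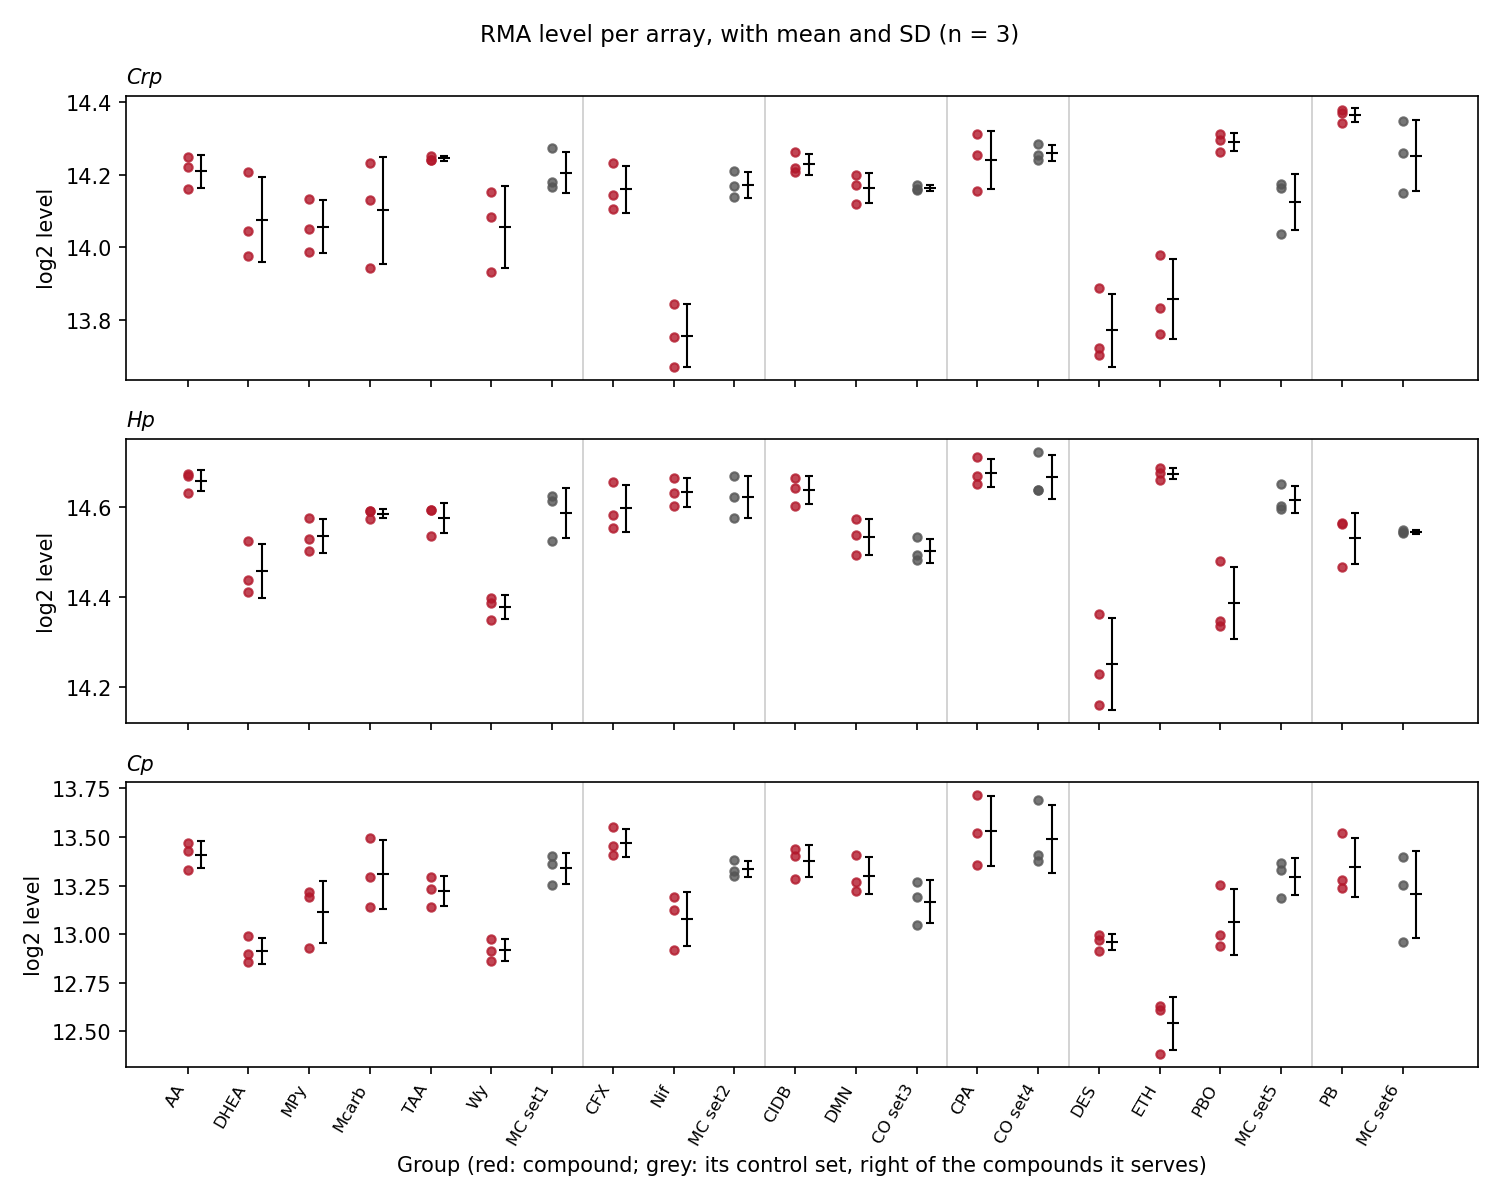
RMA level (log2) of Crp, Hp and Cp on each of the 63 arrays, as points (red for compounds, grey for control sets), with the mean and SD of each group of 3 beside them and each control set to the right of the compounds it served. Nif, DES and ETH are low for Crp, DES is lowest for Hp, and ETH is lowest for Cp, at 12.54 against 13.29 in set 5.

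In 7 compounds limma called 0 of the 10 members. MPy had 7 members at an unadjusted p under 0.05, all lower than control set 1, with a median difference over the members of -0.16 and 0.010 over all probe sets. The largest of them was A2m, at 6.69, 6.68 and 6.56 in MPy, against 7.00, 7.70 and 7.22 in set 1 (difference -0.66, adjusted p = 0.267), and the lowest adjusted p was that of Fgb (difference -0.17, adjusted p = 0.0798). Over all probe sets MPy gave calls, at an adjusted p under 0.05, for 3.28% higher and 3.04% lower. The share of all probe sets at an unadjusted p under 0.05 was not determined, so the 7 members have no like background. With arrays weighted by quality, 5 members passed in MPy, all lower, and 3 passed in DMN, all higher. The share of all probe sets that passed in that fit was not determined. CFX and DMN had 2 members at an unadjusted p under 0.05, AA, Mcarb and TAA had 1 and PB had 0. The background of calls at an adjusted p under 0.05 was 0.00630% higher and 0% lower in CFX, 2.31% and 0.920% in DMN, 2.74% and 1.92% in AA, 0.782% and 0.284% in Mcarb, 3.15% and 3.25% in TAA, and 0.964% and 0.384% in PB.

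In thioacetamide a sulfur takes the place of the oxygen of acetamide, and methylcarbamate carries a methoxy group where acetamide has a methyl group. The doses and, for TAA, the days of dosing differed, and the values are placed side by side. For Orm1 the difference from set 1 was -0.003 in AA (3000 mg/kg/d, 14 days), -0.28 in TAA (19.2 mg/kg/d, 7 days) and 0.32 in Mcarb (400 mg/kg/d, 14 days). For Hamp it was 0.63 in AA, -0.46 in TAA and 0.24 in Mcarb. For Fgb it was -0.13 in AA, -0.03 in TAA and -0.11 in Mcarb. None of these values passed the test.

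Compounds that had both the days of dosing and the control set in common were compared directly, in 7 pairs and 70 tests, at doses that differed within each pair. Of these, 4 (AA, DHEA and Mcarb with each other, and CFX with Nif) were added after the results of the other 3 had been seen. By the study's table of compounds, the vehicle also differed between DES and PBO and between MPy and TAA. DES exceeded PBO in Orm1 by 1.25 ± 0.12, at 14.51 in DES and 13.26 in PBO (adjusted p = 1.99e-11). Crp was lower in DES than in PBO, at 13.77 in DES and 14.29 in PBO (difference -0.52, adjusted p = 4.91e-08). Hp was lower in DES (difference -0.14, adjusted p = 0.0427), with overlapping values. That call was lost without DES animal 1 (adjusted p = 0.131), without DES animal 3 (difference -0.09, adjusted p = 0.31) and without PBO animal 3 (difference -0.09, adjusted p = 0.309), and in 4 of 7 other fits (adjusted p up to 0.397). For the fibrinogen chains, lower in both compounds or in PBO, the differences between DES and PBO were 0.13 (95% interval -0.05 to 0.31) for Fga, -0.008 (-0.13 to 0.11) for Fgb and 0.05 (-0.07 to 0.16) for Fgg. A2m was lower in CIDB than in DMN, at 7.43, 7.22 and 7.66 in CIDB and 8.34, 8.61 and 8.12 in DMN. These did not overlap (difference -0.92 ± 0.31, adjusted p = 0.0432), but leaving out any of the 6 arrays lost the call (adjusted p of 0.0532 to 0.17). Between MPy and TAA 0 members were called, with 3 at an unadjusted p under 0.05. Over all probe sets, 12.2% were called between DES and PBO, 12.9% between CIDB and DMN and 2.11% between MPy and TAA.

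Among the added pairs, 11 of 40 tests passed. Crp was higher in CFX than in Nif, at 14.16 ± 0.06 in CFX and 13.76 ± 0.09 in Nif (difference 0.40, adjusted p = 1.29e-05), and Cp was higher too (0.39, adjusted p = 8.06e-03). The Crp groups did not overlap, and the call held in every fit and without any array, while that of Cp was lost without CFX animal 1 or Nif animal 3 and was 0.014 with the median over probe sets. AA exceeded DHEA in Cp, at 13.41 ± 0.07 in AA and 12.91 ± 0.07 in DHEA (difference 0.50, adjusted p = 3.82e-04), which also held in every fit. Fgb (0.30), Fga (0.30), Fgg (0.22) and Hp (0.20) were higher in AA than in DHEA as well, but each lost its call in 1 or more of the other fits. DHEA was lower than Mcarb in Cp (-0.39), Orm1 (-0.39), Fgb (-0.31) and Hp (-0.13), and each of these calls was lost in another fit or without 1 array. Fgb turned to 0.122 with the median over probe sets, again its dim probe set. Between AA and Mcarb 0 members were called, with 1 at an unadjusted p under 0.05, Orm1 (difference -0.32, 95% interval -0.55 to -0.08). Over all probe sets, 13.3% were called between AA and DHEA, 20.5% between DHEA and Mcarb, 8.34% between CFX and Nif and 5.17% between AA and Mcarb.

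The study grouped compounds as non-genotoxic carcinogens (NGC: AA, DES, DHEA, ETH, Mcarb, MPy, PB and PBO), genotoxic carcinogens (GC: CIDB and DMN) and non-carcinogens (NC: CFX and Nif). CPA, TAA and Wy had no defined class and were left out, and compounds that share a control set are not independent units. With the compound as the unit, limma called 0 members in NGC against NC, in GC against NC and in NGC against GC, with 0, 1 and 2 members at an unadjusted p under 0.05 in that order. The background was 0.0189%, 0% and 0.0819% of probe sets. The lowest adjusted p was that of Lcn2 in NGC against GC, with mean differences from control of 0.22 in NGC and 0.66 in GC (difference -0.44, adjusted p = 0.206). An exact two-sided permutation test over compounds gave p = 0.0222 for that Lcn2 difference, unadjusted and 1 of 30 such tests, which is the smallest value that 8 against 2 compounds allow. For GC against NC the smallest possible exact p is 0.167.

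Over the means of the 21 groups, Fga and Fgg followed each other with a Pearson r of 0.94, Fgb and Fgg with 0.82 and Fga and Fgb with 0.80. Hp followed Fga with 0.73 and Cp followed Crp with 0.65, while A2m and Cp gave -0.47 over all groups and 0.40 without ETH. Without ETH, Cp gave 0.80 with Hp, 0.685 with Fga and 0.57 with Crp, against 0.43, 0.32 and 0.65 over all groups. Outside the members, the genes nearest in pattern were Gemin4, Car1 and C1qtnf3 for A2m (0.92, 0.91 and 0.90), Slc5a1, Cited4 and Plppr3 for Orm1 (0.82, 0.80 and 0.80), and Babam2, Clcn4 and Rdh10 for Crp (0.82, 0.82 and 0.81). The A2m mean was 12.81 in ETH and at most 8.37, in CFX, in the other groups. Its high correlations therefore rest largely on ETH, and its neighbours without ETH were not determined. Nearest to Hp were Mcfd2, Serpina3l and Nherf1 (0.85, 0.84 and 0.83), and nearest to Cp were Sel1l, Vamp7 and Kank3 (0.88, 0.83 and 0.83). Fga and Fgg had Ang (0.90 and 0.84) and Aqp9 (0.89 and 0.84) after each other, and Fgb had Laptm4b (0.85) and Fn1 (0.82) beside Fgg. Lcn2 was nearest to Mafk, Limk2 and Rhob (0.84, 0.83 and 0.81), and Hamp to Apoa5, Kng2l1 and RT1-M3-1 (0.75, 0.75 and 0.74). These are descriptions over groups that share control sets and the normalization, picked as the highest among all genes.

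Of 30 other positive acute phase genes listed, 19 were measured, and the share of all probe sets called in each compound is given above with the members. In DHEA 13 were called lower and 0 higher (median of the list -0.33, of all probe sets 0.009), and in Wy 12 lower and 0 higher (-0.41 and -0.003). In PBO 6 were lower and 0 higher, in CPA 5 and 0, in DES 6 and 2, in ETH 6 and 2, in MPy 6 and 1, in TAA 4 and 0, in CIDB 4 and 1, and in AA and DMN 1 and 0. CFX, Mcarb, Nif and PB had 0 in either direction. The genes called in most compounds were Apcs, which encodes serum amyloid P and was called in 8 (7 lower, down to -0.86 in Wy), and Agt, which encodes angiotensinogen and was called in 8 (7 lower, down to -0.64 in MPy). Serpina3n, an inhibitor of serine proteases, was lower in 6 compounds (down to -0.67 in Wy), and Serping1, the C1 inhibitor, was lower in 6 (down to -0.55 in DHEA). In ETH, where A2m was 32.0-fold higher, Cd14 (-1.29), Itih4 (-0.91) and Lbp (-0.87) were lower and C4bpb (0.94) and Apcs (0.31) were higher.

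Of the negative acute phase genes, which are made less during an acute phase response, 11 of 17 listed were measured. DHEA and Wy lowered 5 each and raised 0 (8.37% and 6.45% of all probe sets were lower), CIDB lowered 4 and raised 1 (background 5.75% lower), CPA lowered 3 and raised 0 (4.73% lower), DES lowered 3 and raised 2 (8.72% lower and 6.77% higher), ETH lowered 3 and raised 1 (11.8% lower and 11.7% higher), and PBO lowered 1 and raised 2 (7.46% lower and 7.03% higher). Apoa1, the main protein of high density lipoprotein, was called in 6 compounds (4 higher, up to 0.72 in ETH). Mug1, a murinoglobulin related to A2m, was called in 5 (3 higher, and as low as -1.66 in Nif). Ahsg, or fetuin A, was lower in 5 (down to -0.35 in DHEA), and Apoa2 was lower in 4 (down to -1.55 in Wy). In DHEA and in Wy every called gene of both lists was lower than in the control set.

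Among 30 measured genes of IL-6, IL-1 and STAT3 signalling, of 35 listed, CIDB raised 6 and lowered 1, where 8.14% of all probe sets were higher and 5.75% lower. DHEA raised 4 and lowered 2 (9.30% and 8.37%), CPA raised 3 and lowered 0 (3.11% and 4.73%), and PBO raised 2 and lowered 2 (7.03% and 7.46%). In CIDB, Stat3 (0.58), Il6st, the gp130 subunit (0.58), Hnf4a (0.60), Junb (0.53), Tnfrsf1a (0.40) and Nfkb1 (0.23) were higher and Irak1 (-0.38) lower. In ETH 1 was higher (Junb, 0.42) and 5 were lower (11.7% and 11.8% of all probe sets), among them Socs3, the feedback inhibitor of this route (-0.27), Myd88 (-0.62) and Tyk2 (-0.41). DES raised 3, of which Lifr, a receptor that pairs with gp130, by 1.76 and Nfkbia by 1.11, and lowered 2 (6.77% and 8.72%). In Nif, with Crp the only member called, Cebpa (-1.69), Hnf4a (-1.23) and Il1r1 (-0.33) were lower. Over the compounds, Irak1 was called in 6 (3 higher, up to 0.78 in PBO), Hnf4a in 5 (4 higher), Stat3 in 4 (2 higher) and Tyk2 in 3 (all lower).

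Of the genes of hepcidin control and iron handling, 25 of 32 listed were measured. PBO raised 6 and lowered 0, Wy raised 1 and lowered 5, DHEA and CPA raised 1 and lowered 4 each, CIDB raised 4 and lowered 4, DES raised 3 and lowered 3, ETH raised 2 and lowered 3, and Nif lowered 4 and raised 0, against the same backgrounds. In Wy Hamp was lower, by a call that rested on Wy animal 1, as given above. In the same livers Id3 (-0.87) and Bmp2 (-0.80), a target and a ligand of bone morphogenetic protein signalling, were lower. Acvr1 (-0.29), Hpx (-0.36) and Slc39a14 (-0.29) were lower as well, and Aco1, the iron regulatory protein 1, was higher (1.33). A link between these genes and Hamp was not tested. In CPA Id3 (-0.88) and Bmp2 (-0.46) were lower too, where Hamp gave 0.33 and was not called. In CIDB Id1 was higher by 1.66 and Tfrc, the transferrin receptor, was lower (-0.91), where Hamp lay at 12.95, 14.56 and 14.10 in CIDB, against 13.07, 13.29 and 13.27 in set 3, and was not called (difference 0.66). Slc40a1, which encodes ferroportin, was higher in 4 compounds, by 1.74 in DES, 0.76 in PBO, 0.63 in CIDB and 0.59 in ETH. Aco1 was called in 5 compounds (4 higher), Acvr1 in 4 (all lower, down to -0.57 in Nif) and Hfe in 4 (2 higher, up to 0.57 in DES).

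**Figure D5:**
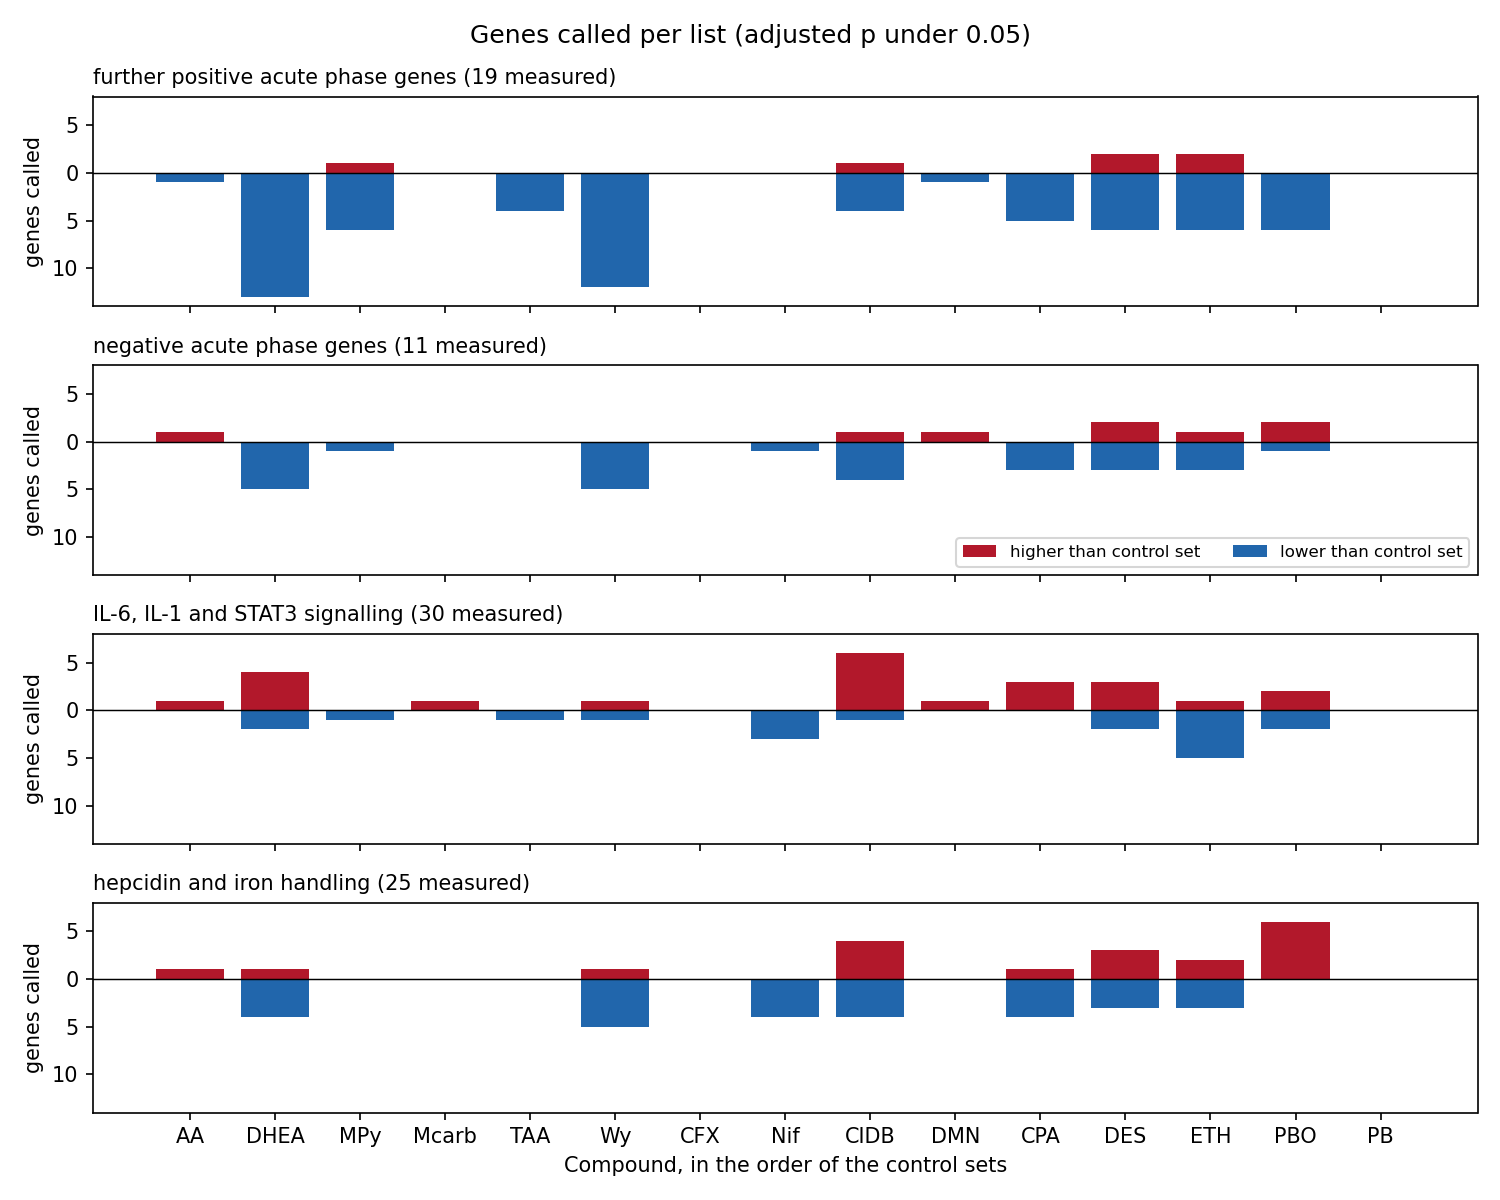
Number of genes called higher (red, upwards) and lower (blue, downwards) than the control set in each compound, for 4 gene lists with the number of measured genes above each panel and compounds ordered by control set. The longest bars are the 13 and 12 positive acute phase genes called lower in DHEA and Wy.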

How the data were processed

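Liver RNA of 63 rats was hybridized to Affymetrix RAE230A arrays. The deposited log2 values were made by the authors from MAS 5.0 CEL files with RMA (background correction, quantile normalization and 1 value per probe set), with no package version given in the sources used here. Arrays have no sequencing depth, and the 3 animals per group limit the precision. Of 15866 probe sets, 12783 carried 1 gene symbol, 312 several and 2771 none. No further normalization was applied.

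In limma 3.58.1 (R 4.3.3), 1 mean per group was estimated from the 63 arrays together, with 42 residual and 4.81 prior degrees of freedom. Each adjusted p is limma's moderated test with Benjamini-Hochberg adjustment over all probe sets, called under 0.05; errors are SE for differences and SD for means. The fit was checked on simulated data. A gene was the probe set with its highest mean. All members were named, and of each further list the 4 genes called in most compounds, together with called genes of the compounds singled out, chosen after their values were seen. The members and lists were chosen with earlier results of these data known. Alternatives were the compared arrays alone, controls pooled by vehicle, array weights, renewed quantile normalization, the median over a gene's probe sets, no probe sets in the lowest 40% of mean level, a trended robust prior, a replicate block and each array left out. Of the 7 direct pairs of compounds, 4 were added after the data had been seen. MicroRNA and protein arrays were not used here.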

Additional observations from a re-analysis of the deposited data

Results flagged for a closer look

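Compounds with the same days of dosing and the same control set differed from each other in 15 of 70 member values, over 7 pairs, by limma's test of the difference itself. In the pairs DES and PBO, CIDB and DMN, and MPy and TAA there were 4. Over all probe sets 12.2%, 12.9% and 2.11% were called in these pairs, in that order. DES exceeded PBO in Orm1 by 1.25 ± 0.12 (adjusted p = 1.99e-11). Crp was lower in DES than in PBO (difference -0.52 ± 0.07, adjusted p = 4.91e-08). Hp was lower in DES than in PBO (difference -0.14 ± 0.05, adjusted p = 0.0427), a call lost without 3 of the 6 arrays in turn. A2m was lower in CIDB than in DMN (difference -0.92 ± 0.31, adjusted p = 0.0432), a call lost without any of the 6.

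The 4 pairs added after those results had been seen gave 11. Over all probe sets, 13.3% were called between AA and DHEA and 8.34% between CFX and Nif. Between DHEA and Mcarb 20.5% were called, and between AA and Mcarb 5.17%. AA exceeded DHEA in Hp (0.20), Fga (0.30), Fgb (0.30), Fgg (0.22) and Cp (0.50). CFX exceeded Nif in Crp (0.40) and Cp (0.39). DHEA was lower than Mcarb in Orm1 (-0.39), Hp (-0.13), Fgb (-0.31) and Cp (-0.39). Of these 11, Cp between AA and DHEA and Crp between CFX and Nif kept their call in every fit and without any array. The doses within each pair differed.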

How the results depend on the processing

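Of the 37 called pairs (33 against a control set and 4 in the direct pairs CIDB and DMN, MPy and TAA, and DES and PBO), 12 kept direction and call in all alternative fits and without any 1 array, and 3 of 485 refits turned the direction. The 3 were Fgb at 0.069 in CPA, 0.047 in DHEA and -0.112 in ETH when its 3 probe sets were replaced by their median, which is taken by a dim probe set. Fitting only the 6 compared arrays, with far fewer residual degrees of freedom, kept 20 of 37 calls and left 1 member in CPA, 3 in ETH, 3 in Wy and 0 in PBO, while DMN and MPy gained 1 each. The share of all probe sets called was determined for the main fit only. Member counts in the other fits and without 1 array therefore have no like background. Array weights kept 33 and gave 3 in DMN, 3 in ETH, 5 in MPy, 2 in Nif and 3 between control sets. Pooling controls by vehicle kept 32 of 33 and gave 2 in MPy, 1 in PB and 1 in TAA. The median over probe sets kept 33 and gave 1 in MPy and 2 between control sets. The trended robust prior kept 33 and gave 2 between compounds. Renewed quantile normalization kept 33, and leaving out dim probe sets kept all 37, since all 10 members lay above that limit. The limit was a mean of 7 over all arrays, and Lcn2 lay only just above it, at 7.22. Its levels in set 3, the controls of CIDB, included 6.97 and 6.96. The exact permutation test over compounds, unadjusted, passed 1 class contrast, where limma called 0. Apart from the Fgb reversals, the cause of these changes was not tested.

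Leaving out 1 array gave 1 to 2 members in CIDB, 1 to 4 in CPA, 3 to 5 in DHEA, 3 to 6 in ETH, 0 to 1 in MPy and 1 to 6 in PBO. The counts moved by over 1.5 times without CIDB animal 1, 2 or 3 or set 3 animal 4 or 5 (1 each), CPA animal 1 (1) or 2 (2) or set 4 animal 1 or 3 (2 each), DHEA animal 3 (3), ETH animal 2 or set 5 animal 8 (3 each), MPy animal 2 (1), and PBO animal 1 (1) or 2 (2) or set 5 animal 7 (1). The 4 added direct pairs had 11 calls, of which 2 held throughout. They had 4 when only the compared arrays were fitted, 11 with the replicate block and 8 to 11 without 1 array, and Fgb between DHEA and Mcarb turned to 0.122 with the median over probe sets.

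Replicate numbers were shared by CPA, PB and the direct pairs, but in CPA, PB and those 3 pairs same-numbered arrays deviated together in no regular way (r of -0.23 to 0.17 over 15 pairs), so the numbers are not taken as pairing. With the number as a replicate block, CPA had 3 calls (Fga at adjusted p = 0.0506), PB had 0 and those 3 pairs had 2. The precision is limited by 3 animals per group, for A2m, Hamp and Lcn2 most of all, with SE of 0.31, 0.44 and 0.18.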
